A study of Mus musculus with 20 samples.

Results

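The genes described here were *Orc2* and 9 other genes of origin licensing, *Orc3*, *Orc4*, *Orc5*, *Orc6*, *Mcm2*, *Mcm3*, *Mcm5*, *Mcm6* and *Mcm7*, which are 10 of the 25655 genes in the deposited tables. They were chosen by name, because *Orc2* had no more than 1 read count in any library of estradiol-treated mice. The values of the estradiol group therefore chose the set. They are given below as a description, with no p-value, and nothing is read from the number of calls in their comparison with OVX + v. Utricles, the otolith organs that sense linear acceleration, were taken from female C57BL/6J mice 4 weeks after an operation at 8 weeks of age. In the sham + v group the ovaries were left in place and a vehicle pellet was implanted, and in the OVX + v group the mice were ovariectomized and given the vehicle pellet. The OVX + E2 mice were ovariectomized and carried a pellet of 50 µg estradiol for 60 days, and the OVX + RAL mice were ovariectomized and carried a pellet of 2.4 mg raloxifene, a selective estrogen receptor modulator, for 60 days. Each group had 5 libraries, prepared from 1 ng total RNA by a kit reading the 3′ ends of mRNA, and the libraries are numbered 1 to 5 (sham + v), 6 to 10 (OVX + v), 11 to 15 (OVX + E2) and 16 to 20 (OVX + RAL).

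Before a cell copies its DNA, the origin recognition complex, built from the Orc proteins, binds the chromosomal sites where replication begins. With the loading factors Cdc6 and Cdt1 it places rings of the Mcm2 to Mcm7 helicase on the DNA, and these rings later open the double helix. Transcription of many of these genes is raised by E2F factors when a cell enters the cycle, while the hair cells and supporting cells of the adult mammalian utricle rarely divide.

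Libraries held 1123053 to 2081747 counts, and expression is given as CPM, the share of the library total scaled to 1000000 counts, not corrected for gene length, since the kit reads transcript ends. A gene was taken as detected in a library with 3 counts or more. A count of 0 allows a level of up to 3 counts, which makes 1.44 CPM at the greatest depth and 2.67 CPM at the lowest, and such limits cover counting error only, because the reads carried no molecular identifiers. The OVX + E2 libraries were the smallest as a group, with 1123053 to 1507667 counts, and a count was found for 7427 to 9680 genes there against 10004 to 10694 in the OVX + v group, ranges that do not overlap. Marker genes of hair cells and of supporting cells were present in every group, with summed levels of 398 to 1359 CPM and 1537 to 4718 CPM over the 20 libraries. In such bulk tissue, fewer cells of a type and less RNA per cell cannot be told apart. The labels do not say whether libraries came from separate animals, so p-values measure only the spread between these libraries.

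Promoter sequences of all 10 genes were found in the RefSeq table of GRCm38.p6, as windows of 300 bases from 250 bases before the transcription start to 50 after it. Each window had 1 exact match in GRCm39, the build of the deposited tables, from which the positions were taken. Sites for E2F were searched on both strands as TTCCCGC, by the variant TTCGCGC, by the variant TTGCCGC and by the variant TTGGCGC, with overlapping matches merged. A match was present in 6 of the 10 genes, 2 of the 5 Orc genes (*Orc3*, *Orc4*) and 4 of the 5 Mcm genes (*Mcm3*, *Mcm5*, *Mcm6*, *Mcm7*), against 10.9% of the 27025 genes in the table. The letters CCAAT, on both strands, were in 8 of the 10 genes and in 41.1% of all genes. The palindromic estrogen response element, the arm GGTCA followed after any 3 bases by the arm TGACC, was in none (0) of the 14 windows of these genes and in 0.070% of all 32851 windows. These matches are letters in a window and were not tested for binding. The windows below show *Orc2*, which set the choice of genes and holds no E2F match in its 2 windows, *Orc5*, which had counts in every library and also holds no match, and *Mcm5* and *Mcm6*, with 2 and 3 runs of E2F letters. They are written 5′ to 3′ on the gene's strand, with E2F matches in capitals, and lie at chr1:58544219-58544518 (*Orc2*, minus strand), chr5:22755287-22755586 (*Orc5*, minus), chr8:75835887-75836186 (*Mcm5*, plus) and chr1:128287393-128287692 (*Mcm6*, minus) of GRCm39.
Orc2: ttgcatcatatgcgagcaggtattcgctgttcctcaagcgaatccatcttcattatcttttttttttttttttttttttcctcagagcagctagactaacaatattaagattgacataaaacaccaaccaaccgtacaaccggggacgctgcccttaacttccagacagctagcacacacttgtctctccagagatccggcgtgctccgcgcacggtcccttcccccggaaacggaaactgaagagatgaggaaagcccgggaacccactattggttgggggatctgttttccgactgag
Orc5: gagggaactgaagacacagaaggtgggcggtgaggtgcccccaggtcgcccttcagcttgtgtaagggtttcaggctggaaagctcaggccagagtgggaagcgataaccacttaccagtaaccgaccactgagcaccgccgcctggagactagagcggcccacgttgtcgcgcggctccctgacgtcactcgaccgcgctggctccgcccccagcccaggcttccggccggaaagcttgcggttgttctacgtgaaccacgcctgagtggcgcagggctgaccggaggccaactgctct
Mcm5: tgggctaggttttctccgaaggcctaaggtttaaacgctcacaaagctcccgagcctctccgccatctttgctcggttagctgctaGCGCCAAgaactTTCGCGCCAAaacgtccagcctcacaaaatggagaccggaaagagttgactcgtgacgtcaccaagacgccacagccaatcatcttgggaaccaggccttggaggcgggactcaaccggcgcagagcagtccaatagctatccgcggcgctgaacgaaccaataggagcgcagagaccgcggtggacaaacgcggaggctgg
Mcm6: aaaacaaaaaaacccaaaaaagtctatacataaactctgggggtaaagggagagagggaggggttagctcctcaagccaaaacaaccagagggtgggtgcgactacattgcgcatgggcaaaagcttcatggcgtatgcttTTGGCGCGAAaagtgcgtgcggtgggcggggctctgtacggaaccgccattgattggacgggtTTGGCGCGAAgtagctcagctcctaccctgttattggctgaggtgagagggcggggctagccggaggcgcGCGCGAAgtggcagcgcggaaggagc

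*Orc2* encodes a core subunit of the origin recognition complex and lies at chr1:58501930-58544268 on the minus strand (GRCm39), with 18 exons in its canonical transcript. Its counts were 69, 0, 68, 45 and 62 in the sham + v libraries, 13, 96, 31, 167 and 43 in the OVX + v libraries, 0, 0, 0, 0 and 1 in the OVX + E2 libraries, and 0, 0, 67, 33 and 3 in the OVX + RAL libraries. In CPM, the sham + v libraries held 33.6, 0, 40.3, 25.2 and 41.1 and the OVX + v libraries 8.10, 60.2, 17.6, 82.7 and 30.0. The OVX + RAL libraries held 0, 0, 39.4, 17.3 and 1.44 CPM, and the 1 count of OVX + E2 library 15 came to 0.701 CPM. All 5 OVX + E2 libraries lay below all 5 OVX + v libraries, whereas 1 sham + v library and 2 OVX + RAL libraries were at 0 as well. Mean levels ran from 39.7 ± 31.0 CPM (SD, n = 5) for OVX + v through 28.0 ± 16.9 for sham + v and 11.6 ± 17.1 for OVX + RAL to 0.140 ± 0.314 for OVX + E2, and each group after the first overlapped the group before it.

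**Figure D1:**
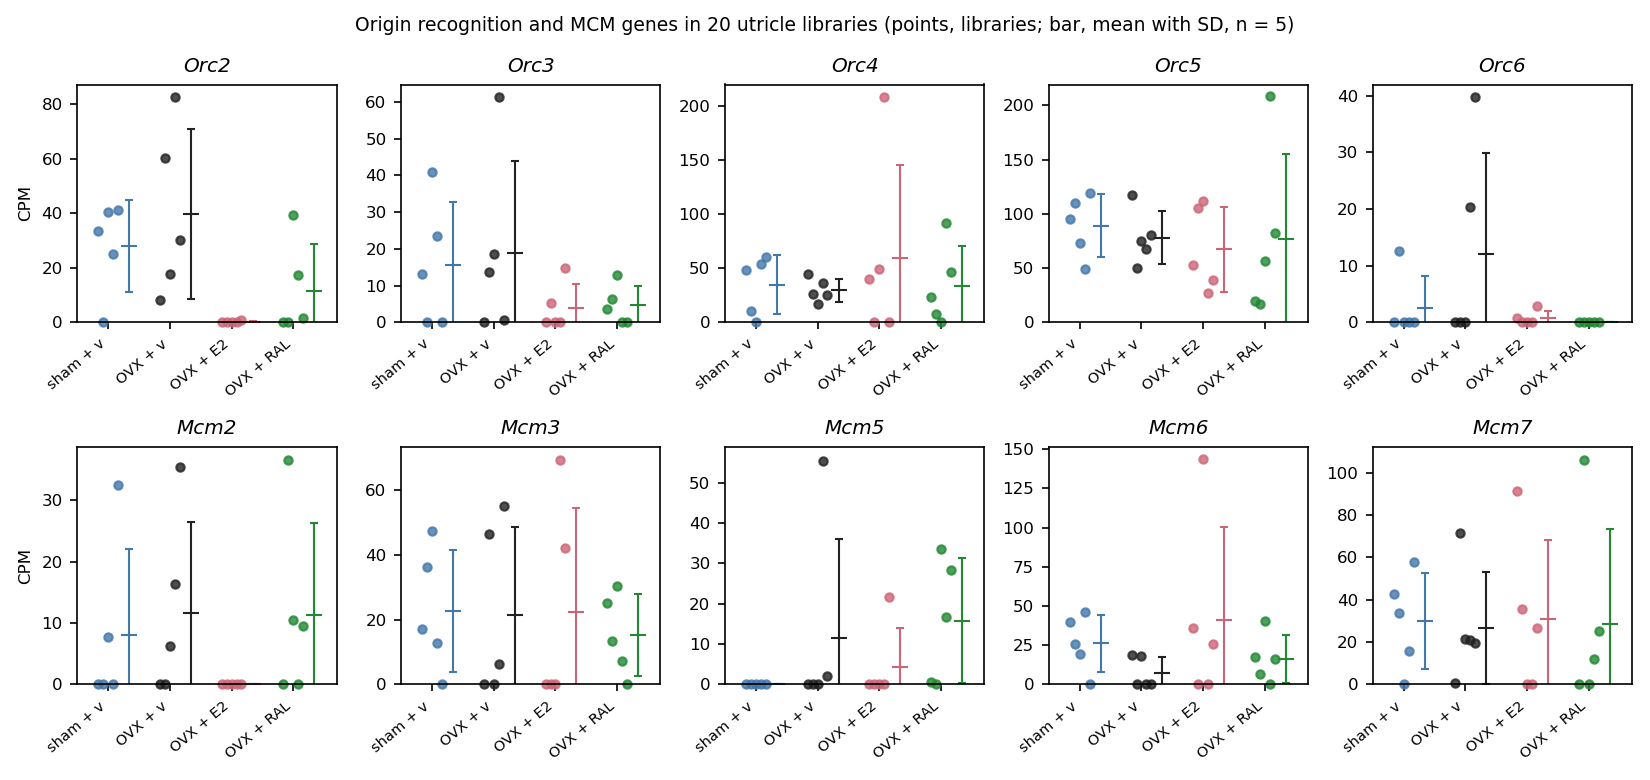
CPM (y axis, a separate linear scale for each gene) of the 10 genes in the 4 groups (x axis). Points are libraries, and the horizontal mark with its bar is the mean with SD over 5 libraries, drawn from 0 upward. For *Orc2* the 5 OVX + E2 points lie between 0 and 0.701 CPM, below the lowest OVX + v point at 8.10 CPM, and no other gene has an OVX + E2 group apart from OVX + v.

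The counts of *Orc2* in the OVX + v group had a mean of 70.0 and an SD of 62.4, 7.46 times the SD of 8.37 that Poisson counting of such a mean gives. The SD was 4.14 times the Poisson value in sham + v and 6.48 times in OVX + RAL. These ratios describe the spread between libraries beside counting noise alone, for reads without molecular identifiers. Over the group sums, *Orc2* was 276-fold lower in OVX + E2 (1 count) than in OVX + v (350 counts), with an exact 95% interval of 49.1 to 10916 that covers counting error only and not this spread between libraries. The corresponding ratio was 181 (32.2 to 7172) against sham + v and 71.9 (12.6 to 2868) against OVX + RAL, and 30.6 against OVX + RAL without library 18, which held 67 of the 103 counts. Without OVX + E2 library 15 no count was left in that group, and the ratios became bounds of at least 17-fold (OVX + v), 12-fold (sham + v) and 4.98-fold (OVX + RAL) with 3 counts per library as the floor. The low OVX + E2 counts are those the choice of *Orc2* rested on, so these ratios, bounds and intervals describe the counts and support nothing beyond them.

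The comparisons the choice did not use were tested on *Orc2* by two-sided exact permutation of log2(CPM + 1) over the 252 groupings of 5 and 5 libraries, for which the smallest possible p is 0.00794. The difference sham + v minus OVX + v was -0.82 (exact permutation p = 0.603). It turned to 0.21 (exact permutation p = 0.778) without sham + v library 2, the sham + v library at 0. OVX + RAL minus OVX + v was -2.77 (exact permutation p = 0.0714, Benjamini-Hochberg adjusted over the 3 comparisons 0.214), and over the fits without each library in turn the exact permutation p ran from 0.0317 (without OVX + RAL library 18, a difference of -3.56) to 0.143 (without OVX + RAL library 16 or 17, -2.23). OVX + RAL minus sham + v was -1.95 (exact permutation p = 0.238, adjusted 0.357), and over the fits without each library it ran from -2.98 (exact permutation p = 0.0714, without sham + v library 2) to -1.41 (exact permutation p = 0.365, without OVX + RAL library 16 or 17). None of the 3 differences passed an adjusted p of 0.05. In the fit of edgeR across all genes, the log2 fold changes of *Orc2* were -0.50 (SE 1.16, adjusted p = 1.00) for sham + v minus OVX + v, -1.77 (SE 1.27, adjusted p = 0.892) for OVX + RAL minus OVX + v and -1.27 (SE 1.64, adjusted p = 1.00) for OVX + RAL minus sham + v.

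Between OVX + E2 and OVX + v, *Orc2* was the only 1 of the 10 genes whose libraries did not overlap, and 0.672% of the 13695 genes fitted were without overlap in this direction (0.832% in either). Among the 4379 genes with at least as many summed OVX + v counts as *Orc2*, 4 held no more than 1 count in each library of OVX + E2. Of the 5790 genes with 3 counts or more in every OVX + v library, 27 held no more than 1 count in each library of OVX + E2, against 5 for sham + v and 2 for OVX + RAL, and the 27 included *Orc2* and *Prim1*, which encodes the catalytic subunit of the primase that starts new DNA strands. *Orc2* is itself among the 4. The limit of 1 count is the one that chose it, so its place among the 4 and the 27 is no separate result. These counts of genes stand beside the lower depth and number of genes found in the OVX + E2 libraries, whose part in them was not tested. Marker genes of neutrophils and marrow also had their lowest range in that group. Their 7 genes summed to 0 to 141 CPM in sham + v, 0 to 203 in OVX + v, 0 to 0.890 in OVX + E2 and 0 to 62.8 in OVX + RAL, with 6 of the 7 at 0 throughout OVX + E2 and the defining *Mpo* and *Elane* at 0 in all 4 groups. The 3 skeletal muscle genes summed to 0 to 64.8 CPM in sham + v, 0 to 124 in OVX + v, 0 to 29.8 in OVX + E2 and 0.480 to 270 in OVX + RAL, with *Myh4* at 0 throughout OVX + E2. The 4 Schwann cell genes summed to 1553 to 3876 CPM in sham + v, 1646 to 2727 in OVX + v, 2115 to 4019 in OVX + E2 and 1735 to 2192 in OVX + RAL, with none (0) at 0 in a whole group. The 4 lymphoid genes summed to 0 to 17.3 CPM in OVX + v and 2.67 to 34.4 in OVX + E2, the group with their highest mean. The 5 erythroid genes summed to 830 to 2459 CPM in OVX + v and 363 to 3837 in OVX + E2. All of these ranges overlapped between OVX + E2 and OVX + v. The part of these markers in the *Orc2* values was not tested.

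*Orc2* shares 19046 of its 42339 bases with *Nif3l1* on the opposite strand, and the sources used here do not state whether counting used strand. *Nif3l1* was detected in 14 libraries at 0 to 139 CPM, with counts of 0, 124, 0, 2 and 13 in the OVX + E2 libraries. If strand was not used, reads from the shared bases could not be told apart. In the deposited gene regions, smaller overlaps with genes on the opposite strand were present for *Orc4* (446 bases with *Acvr2a*, 770 with *Mbd5*), *Orc6* (171 with *Vps35*) and *Mcm7* (64 with *Cops6*, 421 with *Ap4m1*). In GENCODE vM39, *Orc3* also overlaps *Rars2* and *Akirin2* on the opposite strand. There, the last exon of the canonical transcript lies in an overlap with *Nif3l1* for *Orc2*, *Akirin2* for *Orc3*, *Acvr2a* for *Orc4* and *Cops6* for *Mcm7*. In the last 400 nucleotides of the canonical transcripts, *Mcm7* has a near copy of 97.7% identity over 384 nucleotides in the processed pseudogene *Gm5487*, and *Mcm6* one of 90.3% over 382 nucleotides in *Gm15654*, so counts of these genes are uncertain to the extent that reads matched both places. For *Orc4*, *Mcm3* and *Mcm5* the canonical transcript of GENCODE vM39 ends 2633, 2401 and 1164 nucleotides beyond the end of the deposited gene region, and reads from that end may not have been counted. For *Orc2* and *Orc3* the canonical transcript ends at the deposited end, but the gene region of GENCODE vM39 reaches further. It reaches chr1:58497840 for *Orc2* (deposited end 58501930) and chr4:34567214 for *Orc3* (deposited end 34570796). The protein-coding transcripts of *Orc2* have 16 different 3′ ends. Reads from ends in these stretches may not have been counted either, and their part in the zeros was not tested.

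In the other 4 Orc genes the OVX + E2 libraries overlapped those of every group. *Orc5*, an ATP-binding subunit, was the 1 gene of the 10 detected in all 20 libraries. Its levels were 95, 110, 72.9, 48.6 and 119 CPM in sham + v, 117, 50.2, 75.4, 67.9 and 80.1 in OVX + v, 53.1, 106, 111, 26.7 and 38.6 in OVX + E2, and 19.5, 17.2, 56.4, 209 and 82.6 in OVX + RAL. All 4 groups overlapped, with both the highest and the lowest *Orc5* libraries in OVX + RAL, where the SD of its counts was 12.5 times the Poisson value. Its log2 fold change was 0.19 (SE 0.61) for sham + v minus OVX + v and -0.02 (SE 0.57) for OVX + RAL minus OVX + v, both with an adjusted p of 1.00 in edgeR, and these were the narrowest errors of the 10 genes in those comparisons.

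*Orc4*, also an ATP-binding subunit, was detected in 16 libraries. Its levels were 48.7, 10.5, 0, 54.2 and 60.4 CPM in sham + v, 44.2, 26.3, 16.4, 36.2 and 25.1 in OVX + v, 39.8, 0, 48.9, 208 and 0 in OVX + E2, and 23.7, 7.54, 0, 91.8 and 46.1 in OVX + RAL. The OVX + v libraries spanned the narrowest range, and OVX + E2 held both the highest library and 2 libraries at 0, with a mean of 59.4 ± 86.2 CPM (SD, n = 5). *Orc3*, a core subunit that binds *Orc2* protein, had 13.1, 0, 40.9, 23.5 and 0 CPM in sham + v, 0, 13.8, 18.7, 61.4 and 0.697 in OVX + v, 0, 5.29, 0, 0 and 14.7 in OVX + E2, and 3.60, 6.46, 12.9, 0 and 0 in OVX + RAL. Every group included *Orc3* libraries at 0, and the groups overlapped. *Orc6*, the smallest subunit, was detected in 4 libraries, at 12.6 CPM in sham + v library 2, at 20.3 and 39.7 CPM in OVX + v libraries 9 and 10, and at 2.81 CPM in OVX + E2 library 15. It had no count in any OVX + RAL library, where its level was at least 7.56-fold lower than in OVX + v with 3 counts per library as the floor, although 3 of the OVX + v libraries were at 0 too. Without OVX + v library 10 this bound was 3.20-fold.

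The Mcm genes were scattered over the libraries in a like manner. *Mcm2*, whose protein with that of *Mcm5* forms the gate of the helicase ring, was at 0, 0, 7.70, 0 and 32.5 CPM in sham + v, at 0, 0, 6.24, 16.3 and 35.5 in OVX + v, at 0 in all 5 OVX + E2 libraries, and at 0, 36.6, 10.6, 0 and 9.61 in OVX + RAL. Its OVX + E2 level was at least 5.08-fold lower than in OVX + v with 3 counts per library as the floor, but 2 of the 5 OVX + v libraries were at 0 as well, so the groups overlapped. Without OVX + v library 10 the bound was 2.47-fold. *Mcm5* was at 0 in all 5 sham + v libraries, at 0, 0, 0, 55.5 and 2.09 CPM in OVX + v, at 0, 0, 0, 0 and 21.7 in OVX + E2, and at 0.514, 0, 33.5, 16.8 and 28.3 in OVX + RAL. The sham + v level of *Mcm5* was at least 6.79-fold below OVX + v and at least 9.33-fold below OVX + RAL by the same floor, while 3 OVX + v libraries and 1 OVX + RAL library were at 0. Without OVX + v library 9 the OVX + v mean of *Mcm5* was 0.523 CPM, under the floor of 1.70 CPM, and no bound could be given. Neither difference passed the test of edgeR (adjusted p = 0.363 and 0.358).

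*Mcm6* had 39.9, 25.7, 19.6, 46.4 and 0 CPM in sham + v, 18.7, 0, 18.1, 0 and 0 in OVX + v, 35.8, 0, 143, 0 and 26.0 in OVX + E2, and 17.5, 6.46, 40.5, 0 and 16.3 in OVX + RAL. Each of the 4 groups had at least 1 library at 0 and all overlapped, and sham + v minus OVX + v came to a log2 fold change of 1.83 (SE 1.84, adjusted p = 1.00). *Mcm7*, the helicase gene that hosts a cluster of microRNAs in an intron, ranged from 0 to 57.7 CPM in sham + v, 0.623 to 71.5 in OVX + v, 0 to 91.5 in OVX + E2 and 0 to 106 in OVX + RAL, with means of 26.8 to 30.7 CPM. *Mcm3* ranged from 0 to 47.4, 0 to 55.0, 0 to 69.5 and 0 to 30.5 CPM in the same order of groups, with means of 15.3 to 22.7 CPM. In both genes the gaps between group means were smaller than the SD within every group.

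**Figure D2:**
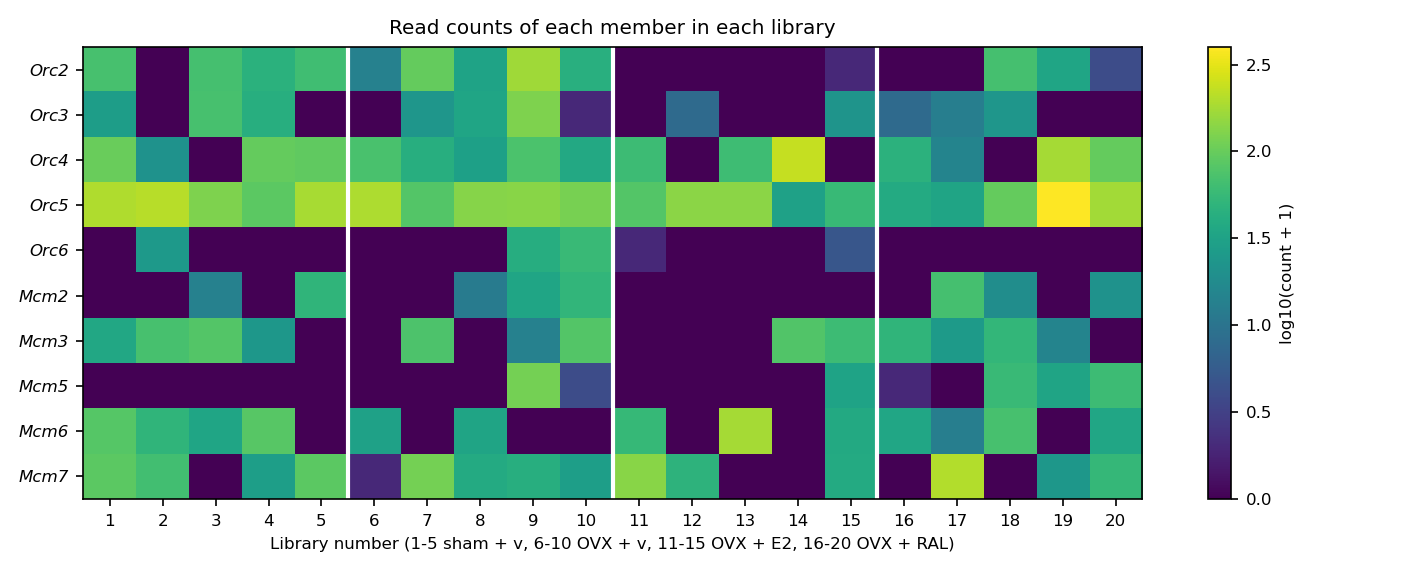
Read counts of the 10 genes (rows) in the 20 libraries (columns, ordered by group and separated by white lines), coloured by log10(count + 1). The darkest cells are libraries without a count, and in OVX + E2 the *Orc2* row has 4 of these and 1 cell of 1 count (library 15), while the *Orc5* row has counts in every cell.

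Scattered detection was usual for genes at these levels. Among the 5872 genes with a mean of 10 to 50 CPM over the 20 libraries, which include *Orc2*, *Orc3*, *Orc4*, *Mcm3*, *Mcm6* and *Mcm7*, the median gene was detected in 15 libraries (interquartile range 12 to 17), and the median ratio of SD to mean was 1.07. These 6 genes were detected in 12, 11, 16, 13, 13 and 14 libraries. In the 4363 genes of 1 to 10 CPM, which include *Orc6*, *Mcm2* and *Mcm5*, the median was 4 libraries (3 to 7), and these 3 genes were detected in 4, 8 and 6. *Orc5* was among the 888 (45.8%) of 1940 genes of 50 to 100 CPM that were detected in all libraries. The number of the 10 genes detected in a library was 5 to 7 (median 6) in sham + v, 4 to 9 (median 7) in OVX + v, 3 to 7 (median 3) in OVX + E2 and 5 to 7 (median 7) in OVX + RAL. The summed level of the 5 Orc genes was 170 ± 35.2 CPM (SD, n = 5) in sham + v, 178 ± 53.6 in OVX + v, 131 ± 68.9 in OVX + E2 and 127 ± 114 in OVX + RAL. That of the 5 Mcm genes was 87.0 ± 11.7, 78.9 ± 43.8, 98.4 ± 44.7 and 87.4 ± 52.6 CPM. In both sums the gaps between group means were smaller than the largest SD, that of OVX + RAL. The widest gap was larger than the smallest SD, that of sham + v.

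**Figure D3:**
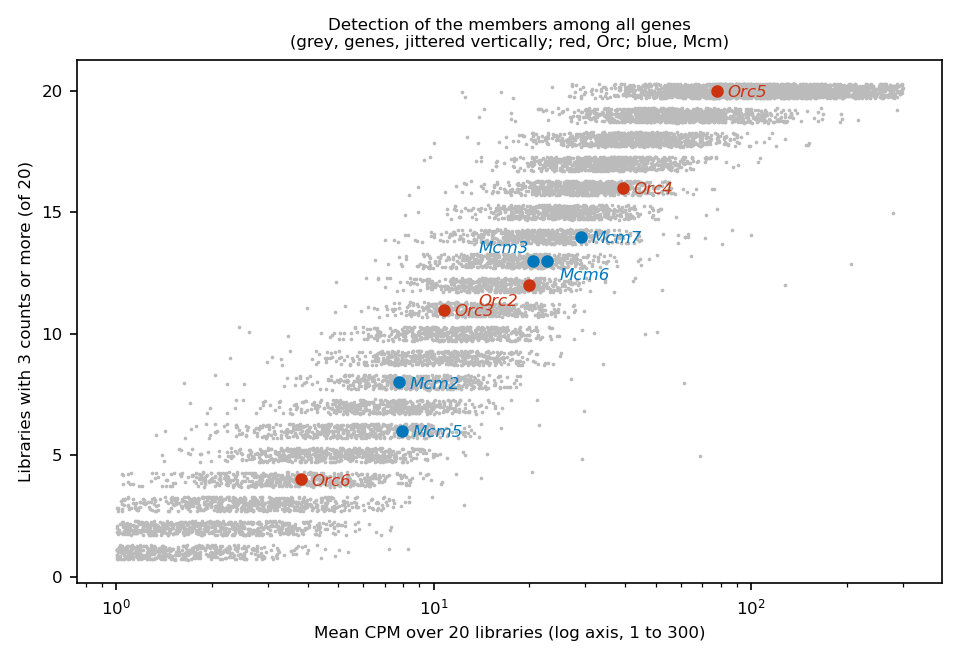
Number of the 20 libraries with 3 counts or more (y axis) against mean CPM (x axis, log scale, 1 to 300 CPM) for all genes in that range (grey, shifted at random in height for display) and for the Orc (red) and Mcm (blue) genes. The 10 genes lie within the band of other genes of their level, from *Orc6* in 4 libraries to *Orc5* in 20.

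Across all genes, edgeR called 0 of the 10 genes in each comparison. For sham + v against OVX + v, 0.0145% of 13825 genes were called at an adjusted p under 0.05, the smallest adjusted p of the 10 was 0.363 (*Mcm5*), and 1 of the 10 against 12.5% of all genes had an unadjusted p under 0.05. Of the 10, 5 were higher and 5 lower in sham + v, with a median log2 fold change of -0.11 beside -0.02 over all genes. For OVX + RAL against OVX + v, 0.0286% of 14002 genes were called, the smallest adjusted p was 0.402 (*Orc6*), and again 1 of the 10 had an unadjusted p under 0.05, against 12.1% of genes. Here 4 were higher and 6 lower in OVX + RAL, with a median of -0.03 for these genes and -0.03 for all genes. For OVX + RAL against sham + v, 0.0648% of 13883 genes were called, and the smallest adjusted p was 0.358, shared by *Orc6* and *Mcm5*, which were the 2 with an unadjusted p under 0.05 (13% of genes). In that comparison 2 were higher and 8 lower in OVX + RAL, with a median of -0.39 beside -0.02. DESeq2 also called 0 of the 10 in these 3 comparisons. The 3 medians had the same values with genes at 0 in a whole group set to the bound that 3 counts per library give. Each such gene stayed on its side of the median, so this is no check of the other genes. No gene of the 10 was without overlap in these comparisons, where 0.499%, 0.578% and 0.691% of genes were.

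For OVX + E2 against OVX + v, whose values chose the genes, edgeR called 0 of the 10 and 0.0584% of 13695 genes, with 4 of the 10 higher and 6 lower in OVX + E2 and a median log2 fold change of -0.80 beside -0.06. DESeq2 called 1 of the 10 here, *Orc2*, from the counts that made the choice, so nothing is read from that call. This comparison and the comparisons of sham + v and OVX + RAL with OVX + v share the same OVX + v libraries. Log2 fold changes in OVX + E2 minus OVX + v and in OVX + RAL minus OVX + v were -7.44 and -1.77 for *Orc2*, -2.22 and -2.03 for *Orc3*, 1.0 and 0.19 for *Orc4*, -0.22 and -0.02 for *Orc5*, and -3.95 and -7.43 for *Orc6*. For the Mcm genes they were -7.14 and -0.03 (*Mcm2*), 0.05 and -0.49 (*Mcm3*), -1.39 and 0.45 (*Mcm5*), 2.46 and 1.13 (*Mcm6*), and 0.20 and 0.10 (*Mcm7*). The fitted values of *Orc2* and *Mcm2* in OVX + E2 and of *Orc6* in OVX + RAL come from groups with at most 1 count and are no measured size.

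**Figure D4:**
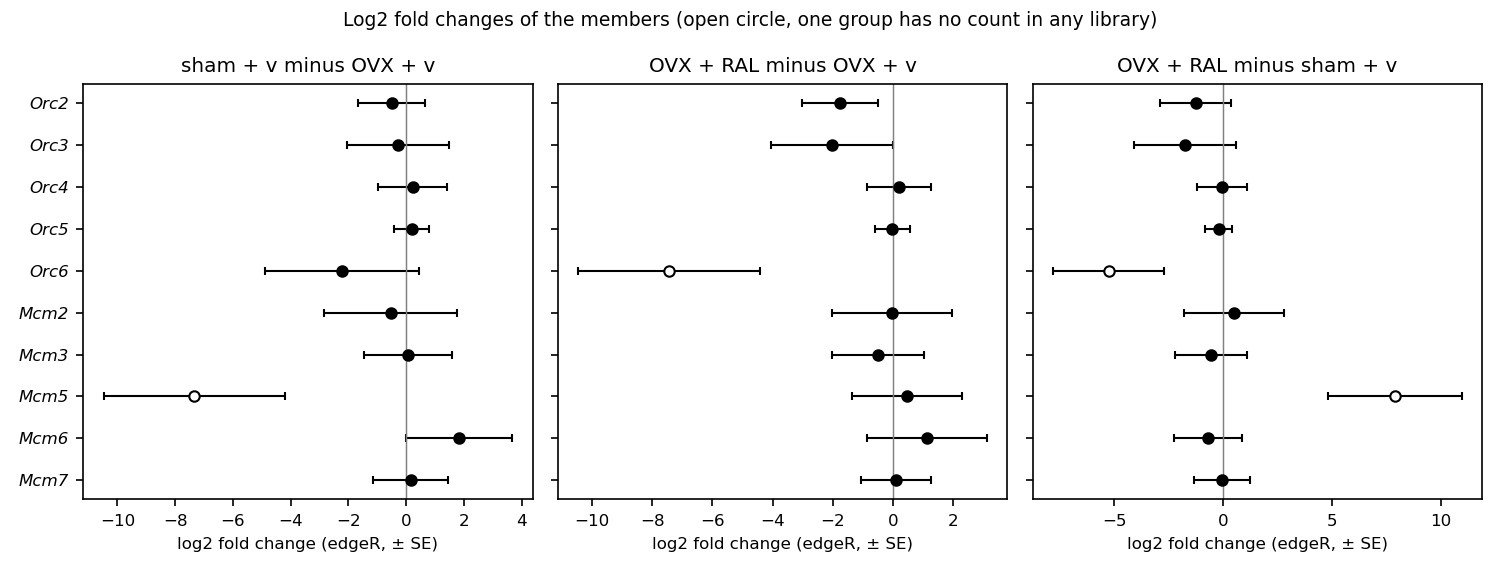
Log2 fold changes of the 10 genes (rows) from edgeR with their SE (bars) in the comparisons not used to choose them, each on its own linear scale. Open circles mark genes without a count in 1 of the groups, whose fitted value is no measured size, and the narrowest bars are those of *Orc5*.

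Across the 20 libraries, the Spearman correlation of CPM over the 45 pairs of these genes had a median of 0.0015 and ran from -0.48 to 0.53, with 23 pairs above 0. The highest was that of *Orc2* with *Orc3*, which stood at rank 149 of the 9532 genes with a mean of at least 10 CPM when ordered by likeness to *Orc2*. *Orc4*, *Orc5*, *Mcm3*, *Mcm6* and *Mcm7* had values of -0.17 to 0.15. The members under 10 CPM, which were not ranked, had 0.42 (*Mcm2*), 0.24 (*Mcm5*) and 0.014 (*Orc6*) with *Orc2*. The genes most like *Orc2* were *Zfp143* (0.91), *Tirap* (0.81), *Ociad1* (0.80), *Gstm1* (0.78) and *Nup37* (0.77). The 5 OVX + E2 libraries, whose *Orc2* counts made the choice, enter these coefficients, and *Zfp143* is itself 1 of the 27 genes with no more than 1 count in each of them. The coefficients describe 20 libraries that share depth, group and the sparse counts of each library, and no p was attached to them.

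Of 85 genes that act beside the 10 in replication and the cell cycle, edgeR called 0 in each comparison. An unadjusted p under 0.05 was found for 6 of 62 tested in sham + v against OVX + v, 11 of 63 in OVX + RAL against OVX + v 11 of 65 in OVX + RAL against sham + v and 13 of 62 in OVX + E2 against OVX + v, where all genes gave 12.5%, 12.1%, 13% and 13.9%. *Orc1*, the ATPase subunit missing from the set, had no count in 18 libraries and 24.5 and 40.9 CPM in OVX + E2 libraries 11 and 13, while *Mcm4*, the remaining helicase subunit, was at 0 to 72.1 CPM in sham + v, 0.623 to 18.3 in OVX + v, 0 to 49.8 in OVX + E2 and 21.7 to 43.7 in OVX + RAL. Among 11 other subunits and loading partners, 8 were tested for sham + v against OVX + v, with 4 higher and 4 lower in sham + v. The loading factor *Cdc6* reached 8.77 CPM in sham + v, 27.6 in OVX + v and 12.6 in OVX + RAL and was at 0 in OVX + E2. *Cdt1* was at 0 in every group but OVX + v, where it reached 3.11 CPM. The best measured of these partners was *Kat7*, a histone acetyltransferase that acts at origins, at a mean of 52.2 CPM in 17 libraries, with a log2 fold change of 0.17 (SE 0.72, adjusted p = 1.00) for sham + v minus OVX + v. Of 17 genes of origin firing, 13 were tested in that comparison, with 6 higher and 7 lower in sham + v. *Rif1*, which restrains origin firing, was in all 20 libraries at 22.9 to 153 CPM and gave 0.49 (SE 0.69, adjusted p = 1.00). Of 27 genes of DNA synthesis, 22 were tested, with 14 higher and 8 lower, and *Rfc1*, the large subunit of the clamp loader, was in all libraries at 32.9 to 127 CPM. For OVX + RAL against OVX + v the counts higher and lower in OVX + RAL were 3 and 5 for the partners, 4 and 8 for firing and 14 and 10 for DNA synthesis, and against sham + v they were 4 and 4, 7 and 5, and 13 and 13. For OVX + E2 against OVX + v the counts higher and lower in OVX + E2 were 3 and 6, 4 and 8, and 9 and 13 for the same lists, beside 6499 and 7196 of all genes tested.

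Markers of dividing cells were sparse. Of 14 such genes, *Ccna2*, *Ccnb1*, *Ccnb2*, *Ccne1*, *Bub1* and *Aurkb*, cyclins and mitotic regulators, had no count in any library. The summed level of the 14 was 0 to 56.5 CPM in sham + v, 12.5 to 73.5 in OVX + v, 0 to 182 in OVX + E2 and 0.480 to 35.2 in OVX + RAL. *Ccne2*, a cyclin of the entry into DNA synthesis and the gene of this list with the highest mean, was detected in 10 libraries at a mean of 13.6 CPM and reached 21.9 CPM in sham + v, 11.9 in OVX + v, 89.0 in OVX + E2 and 25.8 in OVX + RAL, from a lowest value of 0 in each group. Its log2 fold change was 1.37 (SE 2.60, adjusted p = 1.00) for sham + v minus OVX + v. The kinetochore gene *Cenpf* had a median of 25.7 CPM and a maximum of 93.0 in OVX + E2, against medians of 0, 0 and 0.480 and maxima of 9.25, 0.495 and 9.26 in sham + v, OVX + v and OVX + RAL, and *Birc5*, which encodes survivin, had a median of 11.9 CPM and a maximum of 60.4 in OVX + v and medians of 0 in the other groups. The proliferation marker *Mki67* had a median of 0 CPM in every group and a maximum of 24.9 CPM, in OVX + v. Among 16 inhibitors of the cycle and genes of the E2F-RB pathway, *Cdkn1b*, which encodes the cyclin-dependent kinase inhibitor p27, was in all 20 libraries at 349 to 790 CPM. Its log2 fold change was 0.25 (SE 0.26, adjusted p = 1.00) for sham + v minus OVX + v and 0.22 (SE 0.26, adjusted p = 1.00) for OVX + RAL minus OVX + v. Of that list, *E2f8* was at 0 in every library, together with *E2f1* and *E2f7* in OVX + v, *E2f1* and *E2f2* in OVX + E2, and *E2f2* and *E2f7* in OVX + RAL. The counts higher and lower in the first group were 3 and 3 for dividing cells and 6 and 7 for the inhibitor list in sham + v against OVX + v, 3 and 4 and 7 and 5 in OVX + RAL against OVX + v, 2 and 4 and 8 and 5 in OVX + RAL against sham + v, and 2 and 4 and 5 and 8 in OVX + E2 against OVX + v.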

How the data were processed

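RNA of the mouse utricle was measured in 20 libraries, and conditions were taken from the labels. The authors trimmed the reads, cut 12 nucleotides from their start, dropped those shorter than 20 nucleotides, mapped the rest to GRCm39 and counted them per gene in CLC Genomics Workbench. The version and the use of strand are not given in the sources used here. The deposited counts are raw read counts per gene, and the tables repeat the OVX + v libraries with equal counts. The deposited CPM, TPM, RPKM, fold changes and p-values of the authors were not used. Of 40 pairs of replicates, 0 had identical counts.

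CPM was computed from library totals. Groups were compared pairwise with edgeR 4.0.16 (glmQLFit, glmQLFTest; R 4.3.3) in fits of 10 libraries, without TMM factors, on genes with at least 10 summed counts, and p-values were adjusted over all genes by the Benjamini-Hochberg method (threshold 0.05). Standard errors were obtained from the log2 fold change and the F statistic (its absolute value over √F). *Orc2* was also tested by exact permutation (scipy 1.17.1). Ratios with 1 count have an exact binomial interval of 95%. Transcript ends were compared with BLAST 2.17.0 to GRCm39 (GENCODE vM39), at 90% identity over at least 63 nucleotides. The pipeline was tested on simulated data.

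The members and gene lists were chosen with earlier results of these data known. The genes named are all members, the remaining subunits, the member of each list with the highest mean CPM and the 5 genes most like *Orc2*. *Prim1*, *Pcna*, *Cdc6*, *Cdt1*, *Mki67*, *Cenpf*, *Birc5* and the genes at 0 were named with their values in view. The marker lists set beside *Orc2* are a selection from those examined, made with their values in view. As alternatives, TMM factors, DESeq2 1.42.0, limma 3.58.1, no filter, the default filter of edgeR, the robust fit, a fit of all 20 libraries and fits without each library were tried.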

Additional observations from a re-analysis of the deposited data

Results flagged for a closer look

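In 40 groups of 5 libraries (10 genes in 4 groups), the highest library stood apart from the other 4 by Dixon's criterion in 10. About 1 in 20 groups, or 2 of the 40, would meet it by chance if values were normally distributed, which these sparse values are not. The 40 include groups at 0 in all 5 libraries, which cannot meet it (*Orc6* in OVX + RAL, *Mcm2* in OVX + E2, *Mcm5* in sham + v). Where 4 libraries are at 0 the criterion is met whatever the fifth value is, as for *Orc2* and *Mcm5* in OVX + E2 and *Orc6* in sham + v, so these 3 say nothing about the size of that value. In OVX + E2 these were *Orc4* in library 14 (208 CPM), *Mcm6* in library 13 (143 CPM), and 3 values of library 15, *Mcm5* at 21.7 CPM, *Orc6* at 2.81 CPM and *Orc2* at 0.701 CPM, the last being 1 count beside 4 libraries at 0. In sham + v they were *Orc6* in library 2 (12.6 CPM) and *Mcm2* in library 5 (32.5 CPM), and in OVX + v *Mcm5* in library 9 (55.5 CPM). In OVX + RAL both came from library 17, *Mcm7* at 106 CPM and *Mcm2* at 36.6 CPM.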

How the results depend on the processing

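A gene counted as detected from 3 counts, 9 of the 10 genes had libraries at 0, the part of depth in these zeros was not tested, and a p that missed the threshold does not show equal levels. No paired analysis was possible because the library numbers run from 1 to 20 and no number is shared between groups. The number of the 10 genes called was 0 in every comparison under every alternative, with 1 exception, DESeq2 for OVX + E2 against OVX + v, which called 1 gene (*Orc2*). DESeq2 gave no adjusted p for 3 of the values of these genes. TMM factors moved the median log2 fold change of all genes in that comparison from -0.06 to -0.17, and limma on log2(CPM + 1) gave -0.46. Over all genes, edgeR called 8 genes there and 9 for OVX + RAL against sham + v, DESeq2 35 and 15, limma 11 and 11, the robust fit 4 and 3, and the default filter 1 and 0. For sham + v and OVX + RAL against OVX + v, edgeR called 2 and 4, DESeq2 1 and 4, limma 4 and 5, and the robust fit and the default filter 0 and 0. With each library left out in turn, edgeR called 1 to 10 genes for sham + v against OVX + v, 3 to 11 for OVX + RAL against OVX + v, 5 to 16 for OVX + RAL against sham + v and 6 to 17 for OVX + E2 against OVX + v. The permutation difference of *Orc2* between sham + v and OVX + v ranged from -1.26 to 0.21 with libraries left out, and that between OVX + RAL and OVX + v from -3.56 to -2.23, and that between OVX + RAL and sham + v from -2.98 to -1.41.

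Of 667 log2 fold changes under alternatives, 62 changed sign, and the cause was not tested. Under limma these were *Orc4* at -0.69 for sham + v minus OVX + v, at -0.90 for OVX + RAL minus OVX + v and at -1.12 for OVX + E2 minus OVX + v, *Mcm3* at 0.47 and -0.54 and *Mcm7* at -1.0 and -0.73 in the latter 2, and *Mcm2* at 0.0021 for OVX + RAL minus OVX + v. Under TMM factors they were *Mcm2* at 0.0050 for OVX + RAL minus OVX + v, *Mcm3* at -0.069 for OVX + E2 minus OVX + v, and *Orc4* at 0.025 and *Mcm7* at 0.036 for OVX + RAL minus sham + v. The other 50 came from leaving out 1 library. Their ranges for sham + v minus OVX + v were -1.04 to 0.89 (*Orc3*), -0.064 to 0.55 (*Orc4*), -2.55 to 0.50 (*Mcm2*), -0.38 to 0.78 (*Mcm3*) and -0.22 to 0.94 (*Mcm7*). For OVX + RAL minus OVX + v they were -0.61 to 0.51 (*Orc4*), -0.83 to 0.23 (*Orc5*), -1.19 to 1.00 (*Mcm2*), -0.90 to 0.21 (*Mcm3*), -0.015 to 4.77 (*Mcm5*) and -1.51 to 0.88 (*Mcm7*). For OVX + RAL minus sham + v they were -0.84 to 0.28 (*Orc4*), -1.02 to 0.042 (*Orc5*), -0.66 to 2.52 (*Mcm2*) and -1.67 to 0.32 (*Mcm7*). For OVX + E2 minus OVX + v they were -0.42 to 1.32 (*Orc4*), -1.03 to 0.75 (*Mcm3*), -7.13 to 2.88 (*Mcm5*) and -0.78 to 0.97 (*Mcm7*).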

Other observations

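*Pcna*, the sliding clamp of DNA replication, had median levels of 16 CPM in sham + v, 19.8 in OVX + v, 48.3 in OVX + E2 and 14.7 in OVX + RAL, and the groups overlapped. *Prim1* was at 0 in all OVX + E2 libraries and at 5.61 to 20.7 CPM in the OVX + v libraries, while it reached 43.3 CPM in sham + v and 13.4 CPM in OVX + RAL from a lowest value of 0 in both. The summed levels of the 27 genes of DNA synthesis overlapped in all 4 groups, at 294 to 795 CPM in sham + v, 372 to 643 in OVX + v, 407 to 744 in OVX + E2 and 430 to 631 in OVX + RAL.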
